A study of Mus musculus with 4 samples.

Results

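Endogenous retroviruses of the ERVK family were read as 271 repeat subfamilies in a count table of 49382 named genes and repeats, 1445 of them repeats. The members were all repeat entries annotated with the class LTR and the family ERVK, without the 5 entries whose names contain ETn or RLTRETN and without 2 entries whose family label carries a question mark. A subfamily entry sums the reads of all its copies in the genome, so it has no single coordinate. It does not separate transcripts that start in an element from reads of copies inside introns or other longer transcripts. By name, 42 members were internal entries, which hold the coding part of a provirus, and 229 were long terminal repeat (LTR) entries. An LTR entry pools solo LTRs with the LTRs that flank fuller proviruses. 25 members had names beginning with IAP.

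The libraries were made from ribosomal RNA-depleted total RNA of wild-type mouse embryonic fibroblasts (MEF cells), cultured cells of embryonic connective tissue. Cells were either untreated or exposed to 50 µM genistein, a plant isoflavone, for 24 h, with 2 libraries per group. The labels name no solvent for the untreated cells, and the study's methods give DMSO for the controls of other assays on these cells without naming it for the sequenced RNA. The labels also do not say whether the 2 libraries of a group came from separate cultures, so the p-values measure the spread between these libraries, which may be technical.

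ERVK elements are relatives of the betaretroviruses, and in the mouse they include the intracisternal A-type particle (IAP) and MMERVK10C groups, some copies of which can still move in the genome. A complete provirus carries gag, pro and pol genes between LTRs, and the LTRs hold the promoter and the polyadenylation signal. Many copies have been reduced by recombination to a solo LTR. In the mouse these elements can be held down by the TRIM28 and SETDB1 pathway of histone H3 lysine 9 methylation and by DNA methylation. Which of these acts on them in the fibroblasts used here was not tested.

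Total counts lay between 28591958 and 31464284 per library, and repeats took 11.97% to 14.64% of them. The fibroblast label was checked with 9 marker genes, of which Thy1 had no reads. The summed normalised counts of the other 8, led by Fn1 and Col1a1, were 426170 and 438298 in untreated cells and 408228 and 398408 after genistein. Of these 8 genes, 7 were lower after genistein, down to a log2 fold change of -0.73 for Pdgfrb. Only Fn1, at 0.20, was higher (edgeR, adjusted p under 0.05). Over all genes tested, 33.5% were higher and 38.2% lower. The pluripotency markers Zfp42 and Tdgf1 were at 0, and the summed level of their list was 36.0 to 62.8, most of it Nanog and Pou5f1. Nanog was at 25.97 and 26.47 in untreated cells and 35.63 and 41.5 after genistein. Pou5f1 was at 6.99 and 10.59 and then 13.13 and 15.18. Both were higher in both exposed libraries, and neither passed the test (adjusted p = 0.052 and 0.14, edgeR). The 5 leukocyte markers summed to 126 and 127 in untreated cells and 335 and 357 after genistein, nearly all of it Csf1r, with Ptprc at 1.01 or less and Cd3e and Adgre1 at 0. The 4 endothelial markers summed to 24.97 and 30.7 and then 85.3 and 97.2, led by Kdr, with Cdh5 at 0.999 or less. The 4 epithelial markers summed to 403 and 417 and then 128 and 126, nearly all of it Krt8, with Epcam and Krt5 at 0. The part of such cells in the ERVK levels was not tested. In bulk RNA, fewer cells of a type and less RNA per cell cannot be told apart.

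Genes and repeats were scaled together to a common library size, and the scaled value is called a normalised count. On this joint scale the ERVK subfamilies held 102048 and 107078 normalised counts in untreated cells and 147589 and 142761 in genistein-exposed cells. Both exposed libraries lay above both untreated libraries. The mean rose from 104563 ± 3557 to 145175 ± 3413 (SD, n = 2), a ratio of 1.39. The share of ERVK in all counts was 0.332% and 0.350% in untreated cells and 0.5002% and 0.493% after genistein. Their share in the repeat counts alone, which does not depend on the scaling between libraries, was 2.78% and 2.79% in untreated cells and 3.42% and 3.64% after genistein. An exact permutation test of 2 libraries against 2 cannot give a p-value below 0.333, so no p-value was attached to these sums.

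Of the 271 subfamilies, 248 had enough counts to be tested. Of the other 23 subfamilies, 5 had no read in any library, and none of the remaining 18 reached more than 17 reads in a library. Among the 248 subfamilies tested, 180 rose and 5 fell on the joint scale at an adjusted p-value under 0.05 (quasi-likelihood test of edgeR, Benjamini-Hochberg adjustment), and 63 did not pass the test. These are 72.6% and 2.02% of the ERVK subfamilies. Among all 17358 genes and repeats tested, 36.2% were higher and 36.0% were lower by the same test, and among the 870 other repeats 77.4% were higher and 3.10% lower. The share of ERVK subfamilies that rose was thus above that of all entries and close to that of the other repeats. Both exposed libraries lay above both untreated libraries for 202 ERVK subfamilies and below them for 11. The corresponding shares were 43.4% and 42.0% of all entries, and 84.5% and 4.14% of the other repeats.

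The size of the change was small. The median log2 fold change of the 248 subfamilies was 0.57, with the middle 50% between 0.37 and 0.78 and a full range from -0.56 to 2.92. The median was 0.71 over the other repeats and -0.03 over genes. Within the LTR class, the median was 0.61 over 91 ERV1 subfamilies, 0.76 over 81 ERVL subfamilies and 0.73 over 90 subfamilies of the ERVL-MaLR family. Outside that class, it was 0.77 over 246 long interspersed (LINE), 0.72 over 198 DNA transposon and 0.56 over 37 short interspersed (SINE) subfamilies. Within ERVK, the log2 fold change against the log2 mean level had Pearson's r of 0.01 and Spearman's rho of 0.07 over 248 subfamilies, which share the 4 libraries. In 4 groups of 62 subfamilies from the lowest to the highest mean level, the medians were 0.42, 0.54, 0.65 and 0.56, and 23, 45, 54 and 58 rose.

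**Figure D1:**
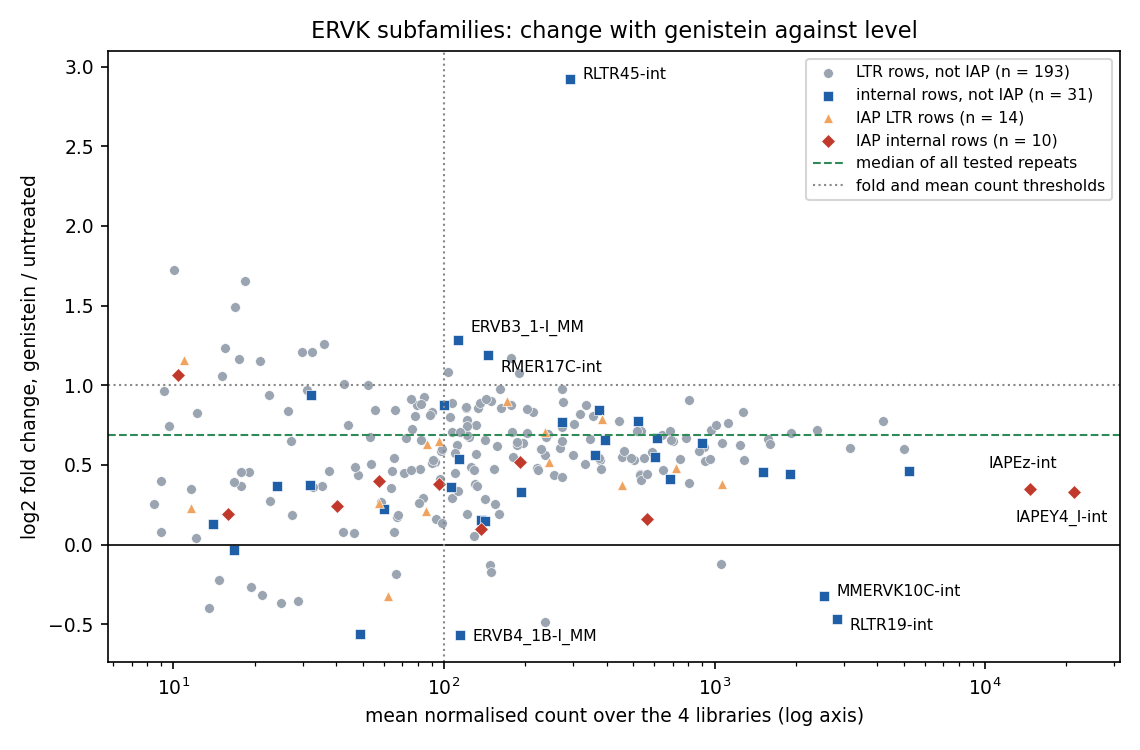
Log2 fold change (genistein over untreated, genes and repeats scaled together) against the mean normalised count over the 4 libraries on a log axis, with 1 point for each of the 248 tested ERVK subfamilies, coloured by name group and kind; dotted lines mark the fold threshold and the mean count threshold. Most points lie between 0 and the median of all repeats (0.69) or just above it, RLTR45-int stands at 2.92, and the abundant RLTR19-int and MMERVK10C-int lie below 0.

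The direction of these changes depends on what the repeats are scaled against. When the 1103 repeats that passed the filter on their own were scaled and fitted without genes, the median of all repeats moved from 0.69 to -0.01 and that of the 243 ERVK subfamilies tested there from 0.57 to -0.12. In that fit 6 ERVK subfamilies were higher and 46 were lower than the bulk of the repeats, beside 9.42% and 13.5% of the other repeats. ERVK counts thus rose relative to genes and, in the median subfamily, by slightly less than those of other repeats did. The summed ERVK share of the repeat reads, given above, was higher in both exposed libraries all the same. A share of summed reads is set mostly by the entries with the most reads, while a median weighs each subfamily equally. On the joint scale the log2 ratio of the ERVK sum was 0.47, below the median of the ERVK subfamilies (0.57) and of the other repeats (0.71). The higher share therefore does not mean that ERVK rose more than most other repeats. Which repeats set it was not tested.

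ERVK reads were concentrated in a few subfamilies. The 10 with the most reads held 53.3% and 52.7% of the ERVK counts in untreated cells and 48.8% and 49.3% after genistein, and the 2 most abundant, both IAP internal entries, held 30.9% and 30.0% before and 27.3% and 28.0% after. The concentration was lower in both exposed libraries. MYSERV6-int, the internal entry of another ERVK group, ranked behind the IAP entries. It had normalised counts of 4317 and 4512 in untreated cells and of 6140.1 and 6010.4 after genistein, a log2 fold change of 0.46 ± 0.03 (SE of the fit, adjusted p = 2.7e-09, edgeR). RMER19B, an LTR entry, had 2975 and 3204 before and 5415 and 5163 after, a log2 fold change of 0.78 ± 0.04 (SE of the fit, adjusted p = 3.6e-11, edgeR). It had the lowest adjusted p-value of the 10 abundant subfamilies. RMER6A (log2 fold change 0.60), RMER4B (0.61), RLTR20A4 (0.72) and RLTR10-int (0.44) were also higher in both exposed libraries, while RLTR19-int and MMERVK10C-int were lower. In the fit of repeats alone the log2 fold change was -0.25 for RLTR10-int, -0.24 for MYSERV6-int, -0.10 for RMER6A and -0.09 for RMER4B, and 0.08 for RMER19B and 0.02 for RLTR20A4.

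The IAP subfamilies were compared with the rest of the family. IAP elements are among the most active retrotransposons of laboratory mice, and an envelope-bearing form is annotated as IAPE. Of 24 IAP subfamilies tested, 15 rose on the joint scale, 0 fell and 9 did not pass (edgeR, adjusted p under 0.05), and 0 of the 24 passed all of the thresholds described below. No IAP subfamily was lower at an unadjusted p-value under 0.05 in edgeR or at an adjusted one in DESeq2. Their median log2 fold change was 0.38, against 0.59 for the 224 other ERVK subfamilies, of which 165 rose and 5 fell. The difference of the medians was -0.21, and it lay between -0.27 and -0.14 when each library was left out in turn. It was -0.11 among LTR entries alone and -0.12 among internal entries alone. Internal entries made up 10 of the 24 IAP and 31 of the 224 other subfamilies. Calculated for each library against the untreated mean, it was 0.04 and -0.04 in untreated cells and -0.12 and -0.21 after genistein. The untreated values are opposite by construction, since their own mean is the reference. No test was made of the difference between IAP and the other subfamilies.

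The 2 IAP internal entries with the most reads had similar log2 fold changes. IAPEY4_I-int had 18724 and 19032 normalised counts in untreated cells and 24025 and 23378 after genistein, a log2 fold change of 0.33 ± 0.05 (SE of the fit, adjusted p = 7.9e-06, edgeR). IAPEz-int, the internal part of the common IAP elements, had 12799 and 13069.6 before and 16322 and 16594 after, a log2 fold change of 0.35 ± 0.05 (SE of the fit, adjusted p = 4.0e-06, edgeR). For both, the 2 libraries of a group lay within a few percent of each other and the groups did not overlap. In the fit of repeats alone both were lower, with log2 fold changes of -0.37 and -0.35. IAP-d-int had 487 and 578 normalised counts before and 612 and 577 after, so its groups overlapped, and its log2 fold change of 0.16 did not pass the test (adjusted p = 0.071, edgeR). It passed with scaling on genes alone (log2 fold change 0.21) or on library totals (0.23), and when the second untreated or the second genistein library was left out.

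The IAP LTR entries had log2 fold changes of different size. IAPLTR1_Mm, the most abundant, had 918 and 937 normalised counts in untreated cells and 1244 and 1169 after genistein, a log2 fold change of 0.38 ± 0.05 (SE of the fit, adjusted p = 9.2e-06, edgeR). IAPEY4_LTR had 606 and 595 before and 855 and 819.9 after, with a log2 fold change of 0.48 (edgeR, adjusted p = 1.8e-06). Both groups of values were separated, and both entries were lower in the fit of repeats alone, at -0.32 and -0.22. The IAPLTR2 entries, another type of IAP LTR, were singled out after their values were seen. IAPLTR2a, IAPLTR2_Mm, IAPLTR2a2_Mm and IAPLTR2b had log2 fold changes of 0.90, 0.79, 0.71 and 0.52 and all rose on the joint scale. With repeats alone they had 0.21, 0.09, 0.0086 and -0.18, and did not pass the test (adjusted p = 0.28, 0.44, 0.97 and 0.20, edgeR). The reads of the IAPLTR2 entries per read of the IAPLTR1 entries, a ratio free of any scaling between libraries, were 0.574 and 0.604 in untreated cells and 0.743 and 0.754 after genistein. The reads of IAPEz-int per read of these LTR entries together went the other way, from 6.20 and 6.09 to 5.35 and 5.59. IAPEY_LTR, also singled out after its values were seen, was the IAP entry with a negative log2 fold change, at -0.32, and it did not pass the test (adjusted p = 0.11, edgeR). With repeats alone it was -1.02 and passed (adjusted p = 0.0027, edgeR).

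**Figure D2:**
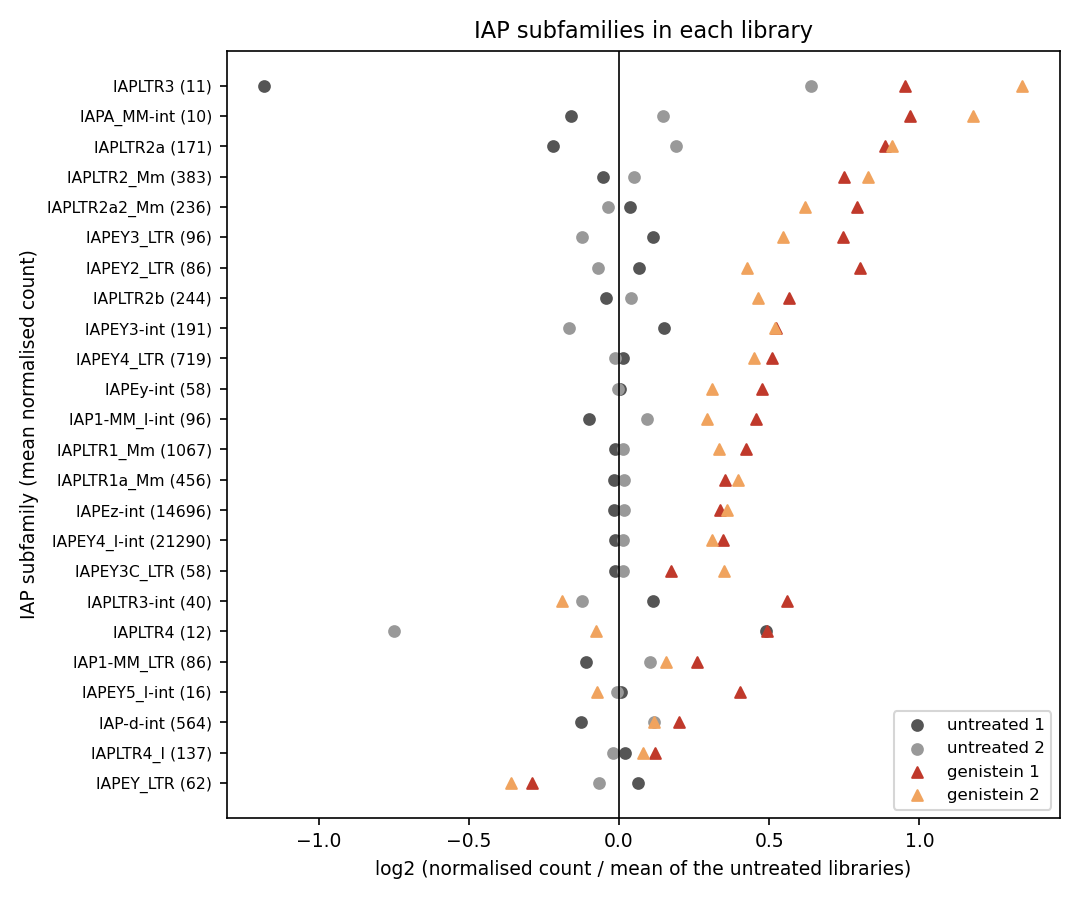
Each of the 24 tested IAP subfamilies (mean normalised count in brackets) in each library, as log2 of its normalised count over the mean of the untreated libraries, genes and repeats scaled together; circles are untreated and triangles are genistein libraries, ordered by fitted log2 fold change. The exposed libraries of the abundant IAPEY4_I-int and IAPEz-int sit close together at about their fitted 0.33 and 0.35, and those of IAPEY_LTR sit below the untreated libraries. In the fit of repeats alone 0 of the 24 IAP subfamilies were higher and 9 were lower, beside 9.42% and 13.5% of the other repeats.

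Internal entries were then compared with LTR entries over the whole family. Of 41 internal entries tested, 24 rose, 4 fell and 13 did not pass on the joint scale, with a median log2 fold change of 0.40. Of 207 LTR entries, 156 rose, 1 fell and 50 did not pass, with a median of 0.60. The difference of the medians was -0.21, and -0.20 to -0.13 when each library was left out. It was -0.15 among entries that are not IAP and -0.16 among IAP entries. In the separate libraries it was 0.02 and -0.02 in untreated cells, again opposite by construction, and -0.18 and -0.13 after genistein. The share of internal reads in all ERVK reads went from 49.6% and 48.4% in untreated cells to 43.9% and 44.2% after genistein. This share is free of the scaling between libraries, and the groups did not overlap. On the joint scale the summed internal entries rose from 51240.1 ± 853 to 63888 ± 1211 normalised counts and the summed LTR entries from 53323 ± 2704 to 81287 ± 2202 (SD, n = 2), ratios of 1.25 and 1.52. In the fit of repeats alone the medians were -0.30 for internal and -0.09 for LTR entries, with 3 internal entries higher and 15 lower of 41, and 3 LTR entries higher and 31 lower of 202. Of the other repeats, 9.42% were higher and 13.5% lower in that fit.

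Internal and LTR entries that share a name stem were set side by side, which gave 19 pairs of 18 stems. Pairs were made by name alone, so a pair need not be parts of the same proviruses. The log2 fold change was positive for both members of 15 pairs. It was smaller for the internal entry in 8 pairs and larger in 11, with a median difference of 0.07. The lower median of internal entries over the family was therefore not seen within the pairs. The signs were opposite on the joint scale in 3 pairs, RLTR19, ERVB4_1B and MMERVK10D3, in each of which the internal entry fell and the LTR entry had a positive value. The LTR entry of RLTR19 rose on the joint scale, from 114 and 119 to 155 and 145 normalised counts (log2 fold change 0.37, adjusted p = 0.016, edgeR), and had -0.33 with repeats alone. Its change did not pass the test with DESeq2 (adjusted p = 0.17), without the first untreated library (adjusted p = 0.052, edgeR) or without the first genistein library (adjusted p = 0.10, edgeR). Those of ERVB4_1B (0.08, adjusted p = 0.76, edgeR) and MMERVK10D3 (0.04, adjusted p = 0.94, edgeR) did not pass the test and turned negative when the first untreated library was left out, at -0.10 and -0.38.

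**Figure D3:**
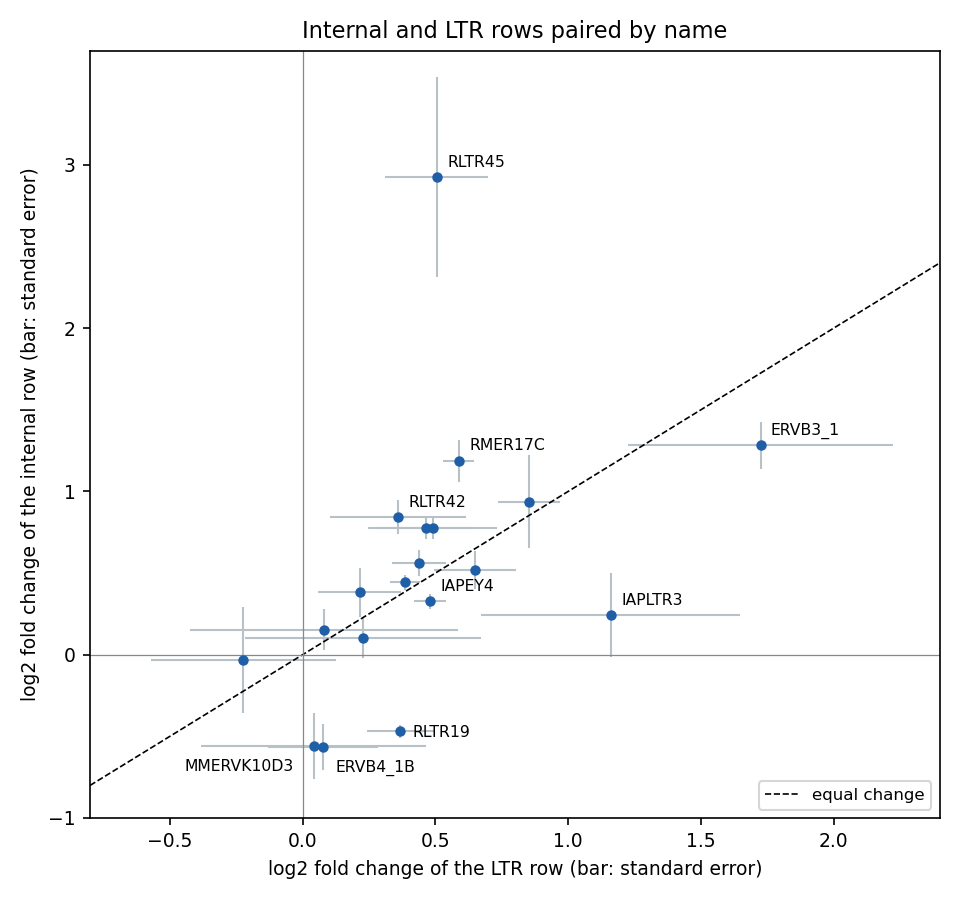
Log2 fold change of the internal entry against that of the LTR entry for the 19 pairs that share a name stem, genes and repeats scaled together; bars are standard errors of the fit and the dashed line marks equal change. RLTR45 stands far above the line and RMER17C above it, and RLTR19, ERVB4_1B and MMERVK10D3 have an internal entry below 0; the LTR entries of these 3 were also below 0 in the fit of repeats alone.

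Internal reads per LTR read, a ratio free of the scaling between libraries, were higher in both exposed libraries than in both untreated ones in 7 of the 19 pairs and lower in 3, and the groups overlapped or touched in the others. This tally is a description with no test. With 2 libraries against 2, a ratio that does not change is still separated in one direction or the other with a chance of 0.333. The 7 were RMER17C, RLTR42, RLTR18, RLTR45, RMER16 with the entry RMER16, ERVB5_1 and IAP1-MM, and the 3 were IAPEY4, RLTR19 and ERVB4_1B. ERVB5_1 rests on few reads, with group means of 14 to 17 normalised counts for its entries. Its ratios were 1.07 and 1.06 in untreated cells and 1.13 and 1.33 after genistein. For IAPEY4 the ratio was 30.9 and 31.99 in untreated cells and 28.1 and 28.5 in exposed cells. For RLTR19 it was 29.4 and 27.4, and then 15.9 and 15.9. RMER17C went the other way, with 0.137 and 0.118 internal reads per LTR read in untreated cells and 0.204 and 0.183 after genistein. RLTR42, with 11.3 and 7.81 in untreated cells and 13.3 and 12.6 after genistein, was likewise separated upward, with 24 to 43 reads of its LTR entry per library. For RLTR10 the ratios of 2.23 and 2.41 before and 2.39 and 2.44 after overlapped, and RLTR10-int (0.44) and RLTR10 (0.38) had similar log2 fold changes. RLTR18, whose entries rose by 0.56 (internal) and 0.44 (LTR) on the log2 scale, had ratios of 1.38 and 1.33 before and 1.42 and 1.54 after.

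The study's methods set 3 thresholds, on the adjusted p-value (0.05), on the size of the log2 fold change (1) and on the mean normalised count (100). All of them were passed by 6 ERVK subfamilies in the upward direction and by 0 in the downward direction, whose lowest log2 fold change was -0.56 whatever the p-value, and by 0 downward with DESeq2. Among all entries these thresholds were passed by 3.91% upward and 3.92% downward, and among the other repeats by 4.02% and 0.460%. The largest value belonged to RLTR45-int, which had 62.9 and 75.2 normalised counts in untreated cells and 896 and 136 after genistein. The first genistein library held more than the other 3 together, with 956 reads against 134 in the second. The log2 fold change of 2.92 ± 0.61 (SE of the fit) had an adjusted p of 0.00047 (edgeR), and without the first genistein library it was 0.98. The LTR entry of the same stem, RLTR45, had 40.0 and 48.7 normalised counts before and 61.9 and 63.8 after, with no such excess in that library.

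The replicates of the other 5 subfamilies past the thresholds lay closer together. ERVB3_1-I_MM, an internal entry of an ERVB betaretrovirus, had 61.9 and 69.9 normalised counts in untreated cells and 156 and 165 after genistein, a log2 fold change of 1.28 ± 0.14 (SE of the fit, adjusted p = 5.5e-07, edgeR). RMER17C-int had 91.9 and 85.8 before and 213 and 192 after, a log2 fold change of 1.19 ± 0.13 (SE of the fit, adjusted p = 3.9e-07, edgeR). RLTR20A, an LTR entry, had 109 and 109 before and 246 and 245 after, a log2 fold change of 1.17 ± 0.11 (SE of the fit, adjusted p = 9.1e-08, edgeR). In these 3 the exposed libraries were each more than 2 times the untreated mean. MLTR31D_MM had 108 and 137 before and 247 and 268 after, a log2 fold change of 1.08 ± 0.12 (SE of the fit, adjusted p = 7.4e-07, edgeR). RLTR10A had 70.9 and 62.5 before and 156 and 127 after, a log2 fold change of 1.08 ± 0.16 (SE of the fit, adjusted p = 1.2e-05, edgeR). All 6 stayed positive in the fit of repeats alone, where RLTR10A did not pass the test and the log2 fold changes of the others were 2.21 for RLTR45-int, 0.58 for ERVB3_1-I_MM, 0.49 for RMER17C-int, 0.47 for RLTR20A and 0.38 for MLTR31D_MM.

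The count past the thresholds depended on single libraries, since several subfamilies lay close to the fold or the count threshold. It was 5 without the first untreated library, which left MLTR31D_MM at 0.91, and 10 without the second, which left RLTR10A at 0.99 and added IAPLTR2a, RLTR13B3, RLTR17C_Mm, RMER6-int and RMER6D. It was 3 without the first genistein library, where RLTR45-int and RLTR10A (0.93) fell below the fold threshold and ERVB3_1-I_MM had a mean normalised count of 96.8. It was 8 without the second genistein library, where ERVB3_1-I_MM and RLTR10A were lost at mean normalised counts of 96.2 and 96.7, and RLTR13B3, RLTR26, RLTR42-int and RMER13A were added. RMER17C-int and RLTR20A passed in all 4 of these fits.

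**Figure D4:**
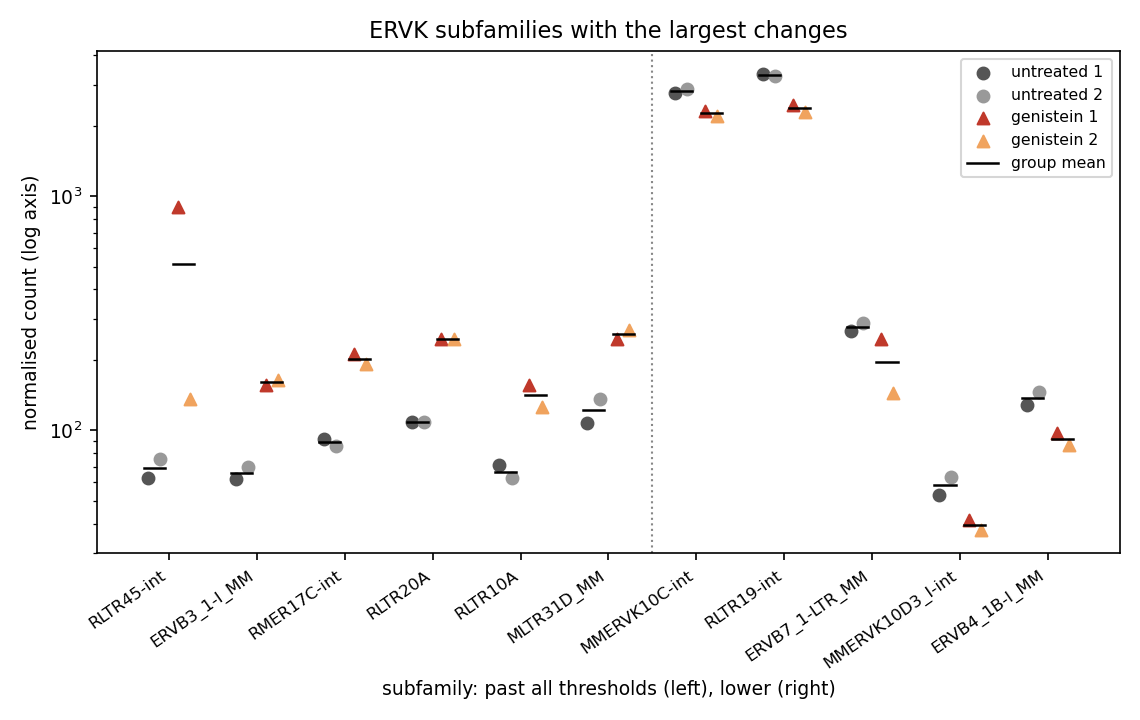
Normalised counts (log axis) in each library for the 6 ERVK subfamilies past all thresholds (left of the dotted line) and the 5 that fell (right), genes and repeats scaled together; circles are untreated libraries, triangles genistein libraries and short lines group means. RLTR45-int is high in the first genistein library (896) and not in the second (136), and ERVB7_1-LTR_MM is low in the second (145); the 5 on the right were also lower, and the 6 on the left stayed positive, in the fit of repeats alone.

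The 5 subfamilies that fell on the joint scale (edgeR, adjusted p under 0.05) ran against most of the family, and 4 of them were internal entries. Whatever the p-value, 17 of the 248 tested subfamilies had a negative log2 fold change and 231 a positive one. RLTR19-int had 3342 and 3249 normalised counts in untreated cells and 2459 and 2301 after genistein, a log2 fold change of -0.47 ± 0.04 (SE of the fit, adjusted p = 2.0e-08, edgeR). MMERVK10C-int, the internal part of a young and still mobile group, had 2773 and 2881 before and 2311 and 2211 after, a log2 fold change of -0.32 ± 0.04 (SE of the fit, adjusted p = 1.7e-06, edgeR). Both are abundant, and in both the exposed libraries lay well below the untreated ones. RLTR10C, the LTR entry that accompanies MMERVK10C, does not share its name stem and was chosen after its values were seen. It had 559 and 526 normalised counts before and 759.5 and 744 after, so MMERVK10C-int reads per RLTR10C read went from 4.96 and 5.47 to 3.04 and 2.97.

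The other 3 subfamilies that fell had lower counts. ERVB4_1B-I_MM had 128 and 146 normalised counts in untreated cells and 97.5 and 87.0 after genistein, a log2 fold change of -0.56 ± 0.14 (SE of the fit, adjusted p = 0.0019, edgeR). MMERVK10D3_I-int had 52.9 and 63.5 before and 41.3 and 37.5 after, a log2 fold change of -0.56 ± 0.20 (SE of the fit, adjusted p = 0.022, edgeR). It did not pass the test in 3 of the 4 fits that left out a library, or with DESeq2 (adjusted p = 0.18). ERVB7_1-LTR_MM had 265 and 287 before and 247 and 145 after, with a log2 fold change of -0.48 (edgeR, adjusted p = 0.013), and without the second genistein library this was -0.16 (adjusted p = 0.23, edgeR). It did not pass with DESeq2 either (adjusted p = 0.25). In the fit of repeats alone all 5 were lower, from -1.26 for ERVB4_1B-I_MM to -1.02 for MMERVK10C-int. The name group of MMERVK10C-int went both ways on the joint scale. MMERVK10D3_I-int fell as MMERVK10C-int did, while MMERVK9E_I-int (0.64) and MMERVK9C_I-int (0.77), named after their values were seen, rose.

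Name groups within ERVK differed in how many subfamilies moved, where 77.4% of the other repeats rose and 3.10% fell on the joint scale. The number of calls also varied with read depth. In the groups by mean level, 23 of 62 subfamilies rose in the lowest and 58 of 62 in the highest. The mean count threshold was passed by 32 of 40 RMER, 5 of 18 ERVB and 1 of 11 RLTR9 subfamilies. Of those past it, 32 RMER, 1 ERVB and 1 RLTR9 rose, with medians of 0.70, 0.15 and 0.74. How far read depth accounts for the differences between name groups was not tested. Of 40 RMER subfamilies, most of them LTR entries, 38 rose on the joint scale and 0 fell, at an unadjusted p-value under 0.05 too (edgeR), with a median log2 fold change of 0.71 and a lowest value of 0.42. In the fit of repeats alone RMER12C (-0.25), RMER12 (-0.17) and RMER6B (-0.16) were lower, and RMER6D (0.21) and RMER17C-int (0.49) were higher (edgeR, adjusted p under 0.05). Of the other repeats, 9.42% were higher and 13.5% lower there. All 6 BGLII and all 3 MYSERV subfamilies rose, with medians of 0.56 and 0.55. Of 11 RLTR9 subfamilies 8 rose (median 0.74), of 22 RLTR13 subfamilies 13 (0.42), of 9 RLTR10 subfamilies 6 (0.38) and of 24 further subfamilies with other names 16 (0.51). The 85 remaining RLTR subfamilies had a median of 0.64, with 70 higher and 1 lower. The ERVB and MMERVK groups had the lowest medians. Of 18 ERVB subfamilies 3 rose and 2 fell (median 0.21), and of 5 MMERVK subfamilies 2 rose and 2 fell (median 0.04). MMTV-int, the internal entry of the mouse mammary tumour virus, had 23.0 and 19.1 normalised counts before and 25.3 and 29.4 after and did not pass the test (log2 fold change 0.37, adjusted p = 0.25, edgeR).

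**Figure D5:**
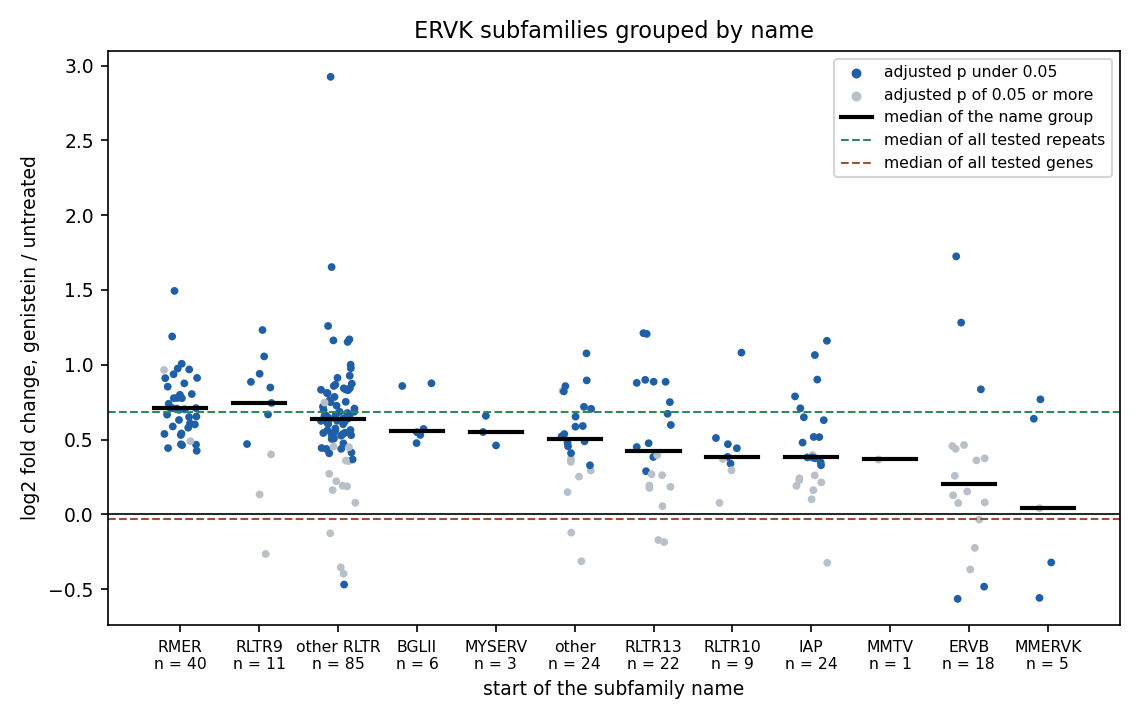
Log2 fold change (genistein over untreated, genes and repeats scaled together) of the 248 tested ERVK subfamilies by the start of their name; each point is a subfamily, coloured by whether its adjusted p-value was under 0.05, black lines are group medians and dashed lines the medians of all repeats (0.69) and of all genes (-0.03). All 40 RMER points lie above 0. The ERVB and MMERVK points lie on both sides of it, as do those of the IAP, RLTR9, RLTR13, other RLTR and other name groups. Scaling repeats alone lowers the median of all repeats to -0.01, and with it all points.

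The untreated libraries differed over the ERVK subfamilies by 1.17 times what sampling alone gives (chi-square over its degrees of freedom) and the genistein libraries by 3.25 times. The genistein value includes RLTR45-int, which was far higher in the first genistein library than in the second. In the median tested subfamily the larger replicate was 1.11 times the smaller in untreated cells and 1.07 times after genistein. Replicates differed by more than 2 times in 9 tested subfamilies among the untreated libraries and in 2 among the genistein libraries.

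Genes known to silence or restrict these elements were followed in the same fit, from a list of 42 genes written from general knowledge. Of 41 tested, 4 rose, 25 fell and 12 did not pass, with a median log2 fold change of -0.31, and Atf7ip2 had no reads. Over all genes tested the median was -0.03, and 33.5% were higher and 38.2% lower. Trim28, the corepressor that zinc finger proteins bring to IAP and other ERVK sequences, had 12023 and 11626 normalised counts in untreated cells and 6178 and 6024 after genistein, a log2 fold change of -0.95 ± 0.04 (SE of the fit, adjusted p = 6.9e-12, edgeR). Setdb1, the histone methyltransferase that Trim28 recruits, had 2797 and 2822 before and 2694 and 2641 after, and its log2 fold change of -0.07 did not pass the test (adjusted p = 0.072, edgeR), though it passed with size factors by relative log expression, at -0.08, and without the filter on low counts, at -0.10. Atf7ip, a partner of Setdb1, rose from 1480.4 and 1605 to 3080.4 and 2940.4, with a log2 fold change of 0.97 (edgeR, adjusted p = 1.1e-11).

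In the group of 22 tested genes of histone H3 lysine 9 silencing, 2 rose and 13 fell. Suv39h2, a methyltransferase of constitutive heterochromatin, passed the fold threshold at -1.01 (adjusted p = 3.2e-10, edgeR). Of the 4 genes of the HUSH complex and its partner Morc2a, 3 fell. Of 6 DNA methylation genes 5 fell and 1 rose. Among them Dnmt1, the maintenance methyltransferase, had 9148 and 9095 normalised counts before and 6266 and 6064 after (log2 fold change -0.57, adjusted p = 1.4e-09, edgeR), and Dnmt3b had 241 and 256 before and 118 and 105 after (-1.15, adjusted p = 1.6e-07, edgeR). Of 9 genes that act on RNA or on reverse transcripts, 4 fell and 1 rose, the latter being Apobec3, a cytidine deaminase that restricts retroviruses (log2 fold change 0.40, adjusted p = 1.5e-05, edgeR). Whether these changes take part in the levels of the ERVK subfamilies was not tested.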

How the data were processed

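Total RNA libraries of 4 MEF samples (2 untreated, 2 genistein) were prepared with a stranded, ribosomal RNA-depleting kit and sequenced as 150 bp paired ends. The authors trimmed the reads with Trim Galore 0.4.0, aligned them to mm10 with STAR 2.5.2, keeping reads with up to 100 alignments, sorted them with samtools 1.3.1, and counted them with TEtranscripts 1.5.1 on GENCODE M9 genes and a modified RepeatMasker annotation. The deposited values are unnormalised counts, as whole numbers, for each gene and each repeat subfamily. TEtranscripts gives exons of genes priority over repeats, so ERVK reads inside annotated exons are counted under genes, and reads aligning to many copies can be shared between related subfamilies, so that close subfamilies such as the IAP entries need not be independent. Whether reads were counted by strand is not given in the sources used here. The 1 entry without a name held at most 0.00314% of the counts of a library and was left out.

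Both kinds of entry were fitted jointly with edgeR 4.0.16 (R 4.3.3): filterByExpr, by group, left 16240 genes and 1118 repeats, libraries were scaled by TMM factors, and groups were compared with its quasi-likelihood test, adjusting p-values over all 17358 entries (Benjamini-Hochberg). The study used DESeq2, which served as an alternative (version 1.42.0). For a normalised count, each count was brought to the mean of the effective library sizes. Standard errors were derived from the fitted log2 fold change and its F statistic (change over the root of F). On simulated counts of 17022 entries for this comparison, the test called 100 of 100 entries changed by 2-fold, 100 of 100 changed by 4-fold, and 3 unchanged entries. The changed entries were drawn from the more abundant ones, and every entry was given the same dispersion. The simulation therefore does not show how the test performs at low counts, at smaller changes or in entries with unequal replicates.

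Internal entries are names holding -int or -I or ending in _I, and all others are LTR entries. Stems for pairing were names without these endings, without -LTR or _LTR (added to the rule after the names were seen) and without a species suffix. Named entries were those past all thresholds, the 10 most abundant in untreated cells, the 5 most abundant IAP entries, the 5 lowest with an adjusted p-value under 0.05, all pairs, those whose replicates differed by more than 2 times at a mean above 100, and, among control genes, Trim28, Setdb1, Dnmt1 and those past the fold threshold, with others given as examples of their list. The members, lists and rules were chosen with earlier results of these data known. Alternatives covered scaling, filter, tool, thresholds, leaving out single libraries and a replicate block. Sequences of the subfamilies are not shown, since no consensus was used here. The tests cover the spread between libraries and not errors of read assignment.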

Additional observations from a re-analysis of the deposited data

How the results depend on the processing

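The median log2 fold change of the ERVK subfamilies, 0.57, was 0.56 with size factors by relative log expression, without the filter and with DESeq2, 0.62 with scaling on genes alone, 0.64 with library totals, and 0.53 to 0.65 when each library was left out. It reversed to -0.12 when repeats were fitted alone, with 6 subfamilies higher and 46 lower in place of 180 and 5. DESeq2 called 145 higher and 3 lower. Past all thresholds there were 6 higher subfamilies in the fit reported, 3 to 10 when a library was left out, 1 higher and 4 lower with repeats alone, 20 at a mean count over 10, 0 at a mean count over 1000, 133 higher and 4 lower without a fold threshold, and 1 when the fold threshold itself was tested (edgeR's glmTreat). Without 1 library, 162 to 178 subfamilies rose and 4 to 6 fell.

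The IAP difference of medians, -0.21, was -0.27 to -0.14 without 1 library, -0.11 among LTR entries and -0.12 among internal entries, the last 2 settings added after the data were seen. The internal difference of medians, -0.21, was -0.20 to -0.13 without 1 library, -0.17 at a mean count over 100, -0.15 when names holding -int alone were taken as internal, and, in settings also added after the data were seen, -0.15 without IAP and -0.16 within IAP. The changes with repeats alone follow from scaling without genes; the cause of the other changes was not tested.

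With repeats alone these named entries reversed from positive to negative: ERVB4_1B-LTR_MM (-0.62), ERVB4_2-I_MM (-0.55), IAP-d-int (-0.54), IAP1-MM_I-int (-0.32), IAP1-MM_LTR (-0.48), IAPEY3_LTR (-0.050), IAPEY3-int (-0.18), IAPEY4_I-int (-0.37), IAPEY4_LTR (-0.22), IAPEz-int (-0.35), IAPLTR1_Mm (-0.32), IAPLTR3-int (-0.46), IAPLTR4 (-0.46), IAPLTR4_I (-0.60), MMERVK10D3_LTR (-0.65), MYSERV6-int (-0.24), RLTR10 (-0.31), RLTR10-int (-0.25), RLTR18 (-0.26), RLTR18-int (-0.14), RLTR19 (-0.33), RLTR42 (-0.34), RLTR45 (-0.19), RMER16 (-0.24), RMER16_Mm (-0.21), RMER17C (-0.11), RMER4B (-0.089) and RMER6A (-0.10). Other reversals were of entries that did not pass the test. ERVB4_1B-LTR_MM ranged from -0.10 (without the first untreated library) to 0.25 over the fits without 1 library, and ERVB4_2-LTR_MM from -0.46 without the first untreated library, through -0.29 without the first genistein library, to 0.87. ERVB5_1-I_MM was 0.0078 on genes alone, 0.033 on totals and 0.045 without the second untreated library. IAPLTR3-int was -0.19 without the first genistein library. IAPLTR4 was -0.25 without the second untreated and -0.085 without the first genistein library, and up to 0.97 in the other such fits. MMERVK10D3_LTR was -0.38 without the first untreated and -0.19 without the second genistein library, and up to 0.60 in the others.

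Nothing showed that equal replicate numbers mark paired libraries: deviations of same-numbered libraries correlated with r of -0.03 over all entries and 0.12 over ERVK subfamilies. A replicate block gave 178 higher and 5 lower, with 6 past all thresholds and a median of 0.57, and changed no call of the 55 named entries and genes. With 2 libraries per group, low-count subfamilies are read with large standard errors.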
